A study of Mus musculus with 230 samples.

Results

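The Gadd45 family rows of a mouse count table were followed through injured and intact sensory neurons. They are the 4 genes Gadd45a, Gadd45b, Gadd45g and Gadd45gip1, chosen by name out of 53278 genes in the table, and all 4 passed the filter on low counts that left 14212 genes for testing. The neurons came from L4 and L5 dorsal root ganglia of C57BL/6 X CAST/Ei mice, were dissociated with enzymes and were picked by hand. The injured groups had sciatic nerve injury surgery and the intact groups are labelled intact. Neither the time from surgery to collection, nor whether intact ganglia came from the same animals, nor the number of neurons per library is given in the labels used here. RNA was read in 18 low-input libraries, 3 each from injured and intact neurons at 1, 8 and 12 months (the 12-month group also carries the label 1 year in places), and in 69 single neurons, of which 21 were injured and 18 intact at 1 month and 22 were injured and 8 intact at 1 year. Only the cytoplasm of each single neuron went into its RNA library. Nothing names the animals behind replicates, so p-values measure the spread between these libraries, which may be technical in part.

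GADD45 proteins are small acidic proteins whose genes are induced by DNA damage, growth arrest and other stresses. They have no enzyme activity of their own and act by binding others: the kinase Map3k4, which feeds the p38 and JNK stress kinases, the cell cycle inhibitor Cdkn1a, the replication clamp Pcna, and repair factors that take part in active DNA demethylation. In neurons Gadd45b is known as an activity-induced gene, and Gadd45a as a gene induced in sensory ganglia by nerve damage. Gadd45gip1 is not a paralog of the other three. Its name records binding to GADD45 proteins, and its product, also called Crif1, is a component of the mitochondrial ribosome. Atf3, a stress-induced bZIP transcription factor widely used to mark axotomised sensory neurons, is the gene against which the family was set.

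The low-input libraries held 7531967 to 19443627 counts. A single feature, CT010467.1, took 29.4% to 59.7% of them in injured (median 39%) and 40.4% to 93.8% in intact libraries (median 65.7%), leaving 770328 to 11587094 counts for all other genes. The second intact 12-month library stood apart, with the smallest remainder, and calls or ranks that turned on it are also given without it. Neuronal markers summed to 8349 to 12878 CPM (counts per 1e6, scaled by TMM) in injured and 7234 to 15132 in intact libraries, with none of 12 at 0. The 10 satellite glia markers summed to 115 to 2077 CPM in injured and 48 to 762 in intact libraries, and the 12 immune markers to 2.57 to 16 and 0.309 to 32.5, with Cx3cr1, C1qa and C1qc at 0 in every intact library. The 10 Schwann cell markers summed to 568 to 722 and 580 to 2104 CPM, and the 11 fibroblast and vascular markers to 21.6 to 65.7 and 0 to 103, with Cldn5 at 0 in every intact library. The marker genes that passed at an adjusted p below 0.05 over the ages were Tubb3 (0.99), Stmn2 (0.89), Gja1 (4.60), Col1a2 (3.93) and Rbfox3 (-1.16, log2 changes). Of 12 neuron markers, however, 10 were below 0 (median -0.162). All 10 satellite glia markers were above 0 (median 1.62), with median sums of 708 CPM in injured and 142 in intact libraries. Of 9 Schwann cell markers tested 8 were below 0, and of 8 fibroblast and vascular ones 6 were above. Of 3 immune markers tested, 2 were above 0. The part of other cells in the results below was not tested. All 6 of the 1-month and all 6 of the 8-month libraries held Y-linked counts, against 0 of 6 at 12 months, where 5 of 6 held Xist counts, so age and sex cannot be told apart at 12 months. In libraries of this kind, fewer expressing cells and less RNA per cell cannot be told apart either.

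Gadd45a lies on chromosome 6 (GRCm38, 67035096 to 67037457, minus strand), Gadd45b on chromosome 10 (80930073 to 80932204, plus), Gadd45g on chromosome 13 (51846678 to 51848468, plus) and Gadd45gip1 on chromosome 8 (84831522 to 84835482, plus). RefSeq promoters (GRCm38.p6) were found for the first 3 of these genes and are shown because these are the stress-inducible paralogs. Each stretch starts 200 bases before the RefSeq start site and stops before the first exon base of the deposited annotation. It is written 5′ to 3′ on the gene's strand, with matches to the octamer, CCAAT, E-box, TATA and C/EBP-ATF letters in capitals.
Gadd45a, chr6:67037458-67037607, minus strand: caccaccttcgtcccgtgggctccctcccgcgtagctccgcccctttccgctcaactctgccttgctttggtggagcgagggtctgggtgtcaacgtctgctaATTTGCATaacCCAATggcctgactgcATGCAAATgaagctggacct
Gadd45b, chr10:80929891-80930072, plus strand: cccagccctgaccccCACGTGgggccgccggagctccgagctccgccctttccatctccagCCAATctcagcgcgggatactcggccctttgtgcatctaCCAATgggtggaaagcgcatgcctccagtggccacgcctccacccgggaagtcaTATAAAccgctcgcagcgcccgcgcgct
Gadd45g, chr13:51846475-51846674, plus strand: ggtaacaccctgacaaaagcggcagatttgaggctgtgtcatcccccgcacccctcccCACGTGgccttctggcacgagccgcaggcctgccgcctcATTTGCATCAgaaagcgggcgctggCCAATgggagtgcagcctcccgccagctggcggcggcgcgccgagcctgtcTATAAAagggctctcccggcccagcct

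The windows searched ran from 250 bases before to 50 bases after the start, on both strands, for the octamer ATGCAAAT, the CRE letters TGACGTCA and the C/EBP-ATF letters TGATGCAA. They were also searched for the CCAAT box, spelled by its name. The E-box was searched as CACGTG. The letters of the TATA box were TATAAA. Those of the AP-1 site were TGACTCA. Gadd45a held 2 octamers in opposite orientations around a CCAAT box, Gadd45g held 1 octamer, and Gadd45b held none. Octamers were present in 1.74% of 32851 promoters of this length. CCAAT was the one word found in all 3 windows (37.4% of all promoters), while the E-box (7.15%) and TATAAA (13.6%) were found in Gadd45b and Gadd45g and not in the Gadd45a window. The last bases of the Gadd45g octamer overlap the C/EBP-ATF letters, read as TTGCATCA on this strand. That word was present in 0.895% of promoters, and the window of Atf3 (chromosome 1) held it too. AP-1 and full CRE letters were found in none of the 3 windows, which says only that these letters are not there (5.2% and 1.79% of all promoters hold them). The windows of Gadd45a, Gadd45b and Gadd45g held 14, 24 and 21 CpG sites, against a median of 7 over all promoters.

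Averaged over the 3 ages, Gadd45a and Gadd45g rose in injured neurons, while Gadd45b and Gadd45gip1 did not pass the test. This made 2 of 4 family genes called at an adjusted p below 0.05 (edgeR quasi-likelihood test, Benjamini-Hochberg over 14212 genes), against 6.18% of all genes tested. Atf3, in the same fit, rose by 5.76 ± 0.56 on the log2 scale (SE, adjusted p = 1.81e-05), from 0 to 18 CPM in intact libraries to 79.2 to 515 CPM in injured ones. Per kilobase of exon, Gadd45g had the highest level of the 4 genes in both conditions, 44 ± 13.1 CPM per kb in injured and 17.9 ± 12.1 in intact libraries (SD, n = 9 each). In intact neurons Gadd45gip1 followed at 8.73 ± 3.58 CPM per kb, then Gadd45a at 2.58 ± 1.09 and Gadd45b at 1.6 ± 1.46 (SD, n = 9 each). In injured neurons the second place was taken by Gadd45a at 11.8 ± 5.43 CPM per kb, ahead of Gadd45gip1 at 5.06 ± 1.64 and Gadd45b at 2.52 ± 0.967 (SD, n = 9 each). Mean ± SD overlapped between neighbours in these orders, except for Gadd45g over Gadd45a in injured and Gadd45gip1 over Gadd45a in intact neurons.

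**Figure D1:**
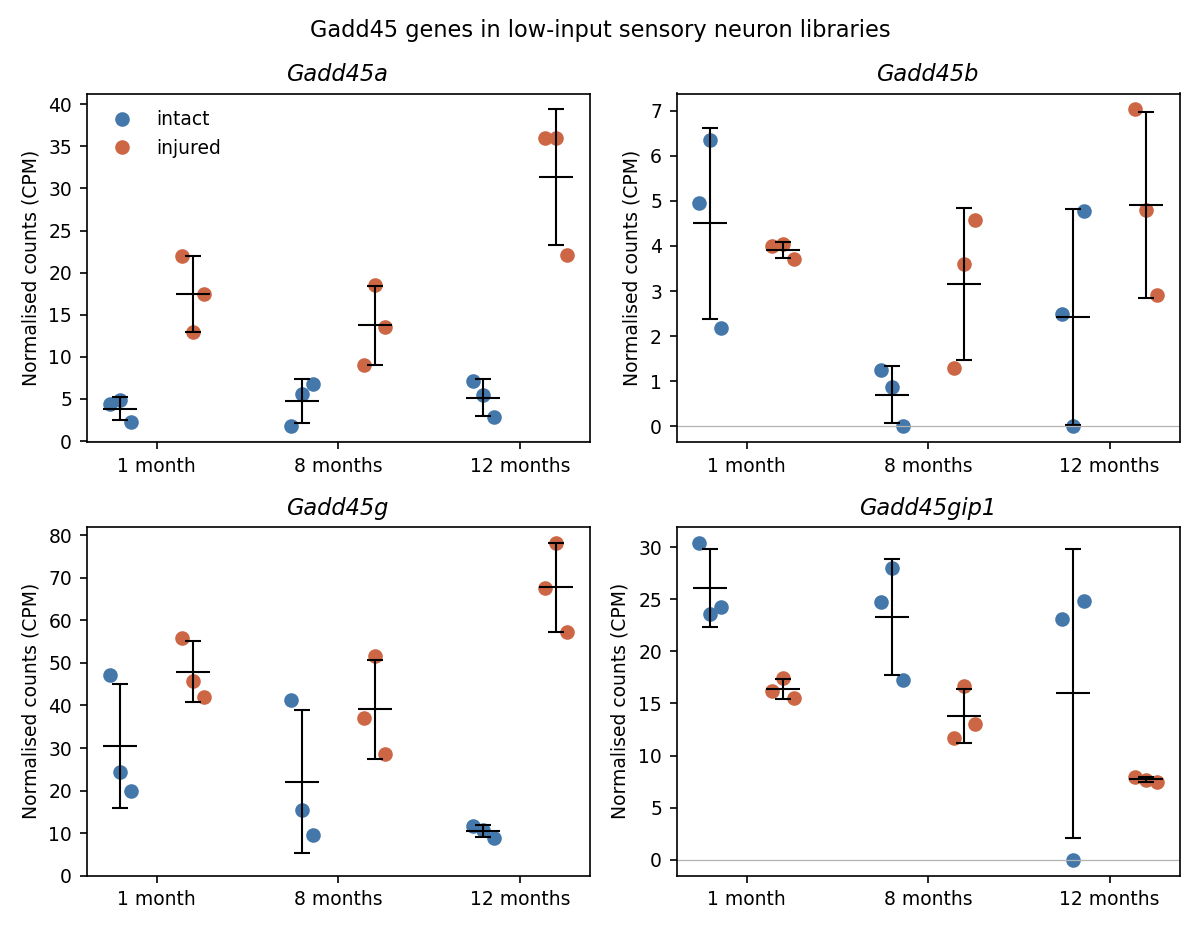
Normalised level (CPM, vertical axis) of each gene in each low-input library, by age and condition; dots are libraries, and black lines give the mean ± SD of 3. Gadd45a separates injured from intact at every age, Gadd45g at 12 months alone, and Gadd45gip1 is lower in injured libraries apart from 1 intact library at 0 CPM.

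Gadd45a, the p53- and stress-inducible founder of the family, rose 4.31-fold after injury. Its intact levels were 4.42, 4.82 and 2.25 CPM at 1 month, 1.75, 5.62 and 6.73 at 8 months, then 7.19, 5.42 and 2.82 at 12 months. In the injured libraries they were 22, 12.9 and 17.5 CPM at 1 month, 9.07, 18.5 and 13.6 at 8 months, then 36, 36 and 22.1 at 12 months. Every injured library was above every intact library of its age and, with a lowest injured value of 9.07 and a highest intact value of 7.19 CPM, of any age. Among all genes tested, 1.83% were higher in injured libraries without overlap at each of the 3 ages. The averaged log2 change was 2.11 ± 0.29 (SE, adjusted p = 0.000261), and it stayed between 1.98 and 2.30 when any 1 library was left out. Entering the share of CT010467.1 as a covariate gave 1.54 ± 0.61 (SE, adjusted p = 0.31), a fit in which 11 genes in all were called, and the same covariate gave Atf3 an adjusted p of 0.178. Gadd45a shares 337 bp of exon with E230016M11Rik on the other strand, which was at 0 to 1.81 CPM. Counting ignored strand, and fragments that matched both genes alike were counted for neither.

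Gadd45g, a paralog first described as a cytokine-inducible gene, rose 2.63-fold over the ages. Intact libraries held 47.1, 24.3 and 19.9 CPM at 1 month, 41.2, 15.4 and 9.61 at 8 months, then 11.6, 10.8 and 8.91 at 12 months. Injured libraries held 55.9, 45.8 and 42.1 CPM at 1 month, 37, 51.7 and 28.5 at 8 months, then 67.6, 78.3 and 57.3 at 12 months. The first intact library at 1 month and the first at 8 months were as high as injured libraries of their age, and the groups were apart at 12 months alone. The averaged log2 change was 1.40 ± 0.26 (SE, adjusted p = 0.00337), 1.28 to 1.67 without any 1 library, and 1.34 ± 0.57 with the covariate (SE, adjusted p = 0.342).

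Gadd45b, the activity-induced paralog, was the least abundant of the 4 per kilobase in both conditions. Among intact libraries the 1-month ones held 4.95, 6.36 and 2.19 CPM, the 8-month ones 1.24, 0.865 and 0, and the 12-month ones 2.48, 0 and 4.78, which is 0 to 186 counts per library. Injured libraries gave 3.99, 4.04 and 3.71 CPM at 1 month, 1.3, 3.61 and 4.57 at 8 months, then 7.03, 4.8 and 2.91 at 12 months (14 to 112 counts). The groups overlapped at 1 and 12 months and were apart at 8 months by the narrow gap between 1.24 and 1.3 CPM. The averaged log2 change was 0.91 ± 0.49 (SE, adjusted p = 0.32) and turned to -0.27 ± 1.27 with the covariate (SE, adjusted p = 0.968). The immediate early genes, a class that tissue dissociation is also known to induce, summed to 173 to 363 CPM in injured and 70.9 to 362 CPM in intact libraries, and their part in these values was not tested.

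Gadd45gip1, the mitochondrial ribosome gene, had lower values in injured libraries, and in edgeR its call turned on 1 library and on the filter on low counts. Intact libraries held 30.4, 23.6 and 24.2 CPM at 1 month, 24.7, 28 and 17.2 at 8 months, then 23.1, 0 and 24.8 at 12 months. Injured libraries held 16.2, 17.4 and 15.5 CPM at 1 month, 11.7, 16.7 and 13 at 8 months, then 7.97, 7.67 and 7.51 at 12 months. The 0 belongs to the second intact 12-month library, where a count of 0 allows up to 5.42 CPM (counting error only). The log2 change was -0.88 ± 0.29 (SE, adjusted p = 0.0826) with that library and -1.02 ± 0.14 without it (SE, adjusted p = 0.000385). Without it, no injured library overlapped the intact ones of its age, a pattern shown in this direction by 0.232% of genes. DESeq2 (adjusted p = 0.000445) and limma-voom (adjusted p = 0.0091) called the fall with all 18 libraries, as did edgeR with no filter on low counts (adjusted p = 0.0226). Scaling by ERCC spike-ins turned the sign to 1.86 ± 0.76 (SE, adjusted p = 0.0157) in a fit where the median of all genes was 2.90, so Gadd45gip1 stayed below the median there too.

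**Figure D2:**
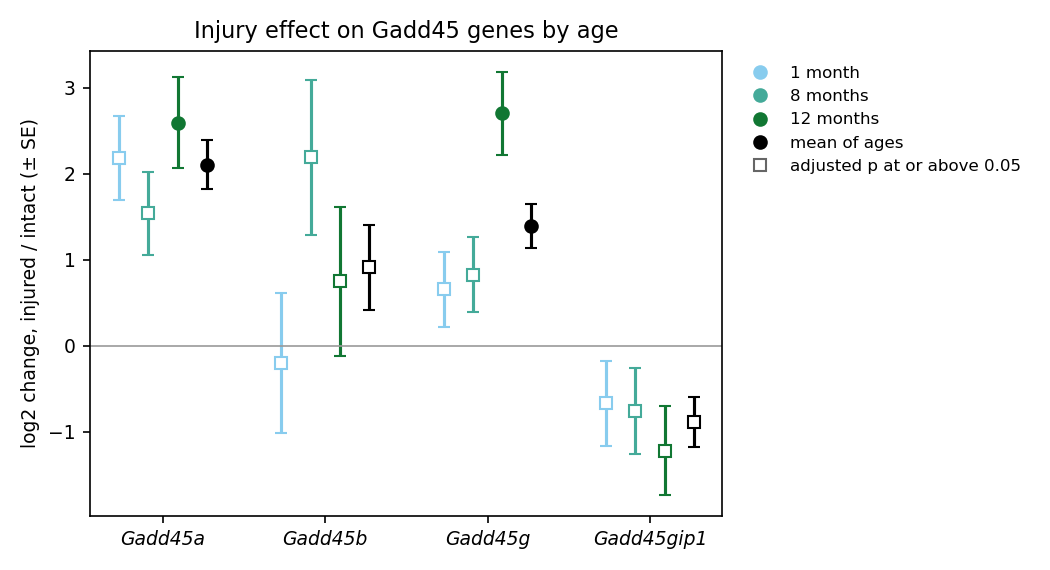
Injury effect (log2 change, injured over intact, vertical axis) for each gene at each age and averaged over ages, with SE from the edgeR fit; filled circles have an adjusted p below 0.05 and open squares do not. Gadd45a and Gadd45g are filled at 12 months and for the mean, and every estimate of Gadd45gip1 is below 0.

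Age by age, the calls were confined to 12 months in this fit. At 1 month 0 of 4 genes were called (0.232% of all genes), and 1 had an unadjusted p below 0.05. DESeq2 and limma-voom each called 1, beside 123 and 90 of all 14212 genes. Gadd45a, with 2.19 ± 0.49 (SE), missed the threshold at an adjusted p of 0.0892, and it passed at 0.046 when only the 6 libraries of that age were fitted. Whether replicate numbers at 1 month are pairs could not be settled by the correlations given under processing, and this fit held no block for them. An alternative fit with a block for replicate numbers at every age, not at 1 month alone, gave Gadd45a 2.22 ± 0.43 (SE, adjusted p = 0.187). At 8 months 0 of 4 were called by edgeR, DESeq2 or limma-voom (0.957% of all genes in edgeR), with 2 at an unadjusted p below 0.05. The log2 changes there were 1.54 ± 0.48 for Gadd45a, 2.19 ± 0.90 for Gadd45b, 0.83 ± 0.44 for Gadd45g and -0.75 ± 0.50 for Gadd45gip1 (SE).

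At 12 months 2 of 4 were called, against 2.99% of all genes. DESeq2 called 3 and limma-voom 1, beside 1238 and 479 of all 14212 genes. Gadd45a rose by 2.60 ± 0.53 (SE, adjusted p = 0.0164) and Gadd45g by 2.70 ± 0.48 (SE, adjusted p = 0.00762) on the log2 scale, while Gadd45b was at 0.75 ± 0.87 (adjusted p = 0.702) and Gadd45gip1 at -1.22 ± 0.51 (adjusted p = 0.205). The Gadd45a call at this age was lost without the third intact library (adjusted p = 0.0601), without the first injured one (0.0577) or without the second (0.0627). That of Gadd45g held without any 1 library (adjusted p 0.00141 to 0.035). Without the second intact library Gadd45gip1 fell by 1.63 ± 0.25 on the log2 scale (SE, adjusted p = 0.00317). With all 18 libraries DESeq2 called its fall too (-1.34 ± 0.38, SE, adjusted p = 0.0105). In limma-voom Gadd45a was not called at this age (adjusted p = 0.057).

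The larger 12-month effect of Gadd45g was not separated from those at the other ages once all genes were accounted for. Its injury effect exceeded that at 1 month by 2.04 ± 0.64 on the log2 scale (SE, adjusted p = 0.659), and the joint test over ages gave p = 0.00952 and an adjusted p of 0.438. For the joint test 0 of 4 genes were called (0% of all genes), with 1 at an unadjusted p below 0.05 and 0 by DESeq2 and limma-voom. Between ages of intact neurons the 4 genes gave 0 calls in 12 comparisons by edgeR, 4 at an unadjusted p below 0.05, 1 call by DESeq2 and 0 by limma-voom. Of all genes, edgeR called 0.922% (8 against 1 month), 0.246% (12 against 1) and 6.69% (12 against 8). The lowest adjusted p belonged to Gadd45b, at -2.70 ± 0.91 for 8 against 1 month (SE, adjusted p = 0.155). Gadd45g was at -1.55 ± 0.47 for 12 against 1 month (SE, adjusted p = 0.221). Between ages of injured neurons edgeR gave 0 calls in 12 comparisons, with 2 at an unadjusted p below 0.05. It called 0.225%, 0.113% and 0.0633% of all genes in the same order of contrasts. DESeq2 gave 0 calls and limma-voom 3. Shares of all genes called by DESeq2 and limma-voom between ages of intact or injured neurons were not counted, so their calls have no background here. The limma-voom calls were Gadd45gip1 for 12 against 1 month (-1.07, adjusted p = 0.00675) and for 12 against 8 months (-0.873, adjusted p = 0.038), and Gadd45a for 12 against 8 months (0.939, adjusted p = 0.0499).

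Lists around the family are read against the 6.18% of all genes called in the averaged contrast (726 of 14212 higher and 152 lower). Of 15 partners and stress kinases tested, 1 was called, near that share: Cdkn1a, which rose by 3.84 ± 0.74 (SE, adjusted p = 0.00565) from 10.2 ± 10.8 to 92.9 ± 43.2 CPM (SD, n = 9 each). The list's median log2 change was -0.133, beside 0.033 for all genes. Of 18 DNA demethylation and repair genes, 1 was called, the methylcytosine dioxygenase Tet3 (1.33 ± 0.26, SE, adjusted p = 0.00451), with a list median of 0.199, again near the share of all genes. Of 25 transcription factors held to act upstream of the family, Atf3 and Jun were called (Jun 1.21 ± 0.34, SE, adjusted p = 0.0419), with a list median of 0.293. Of 16 p53 targets tested, a list that also holds Cdkn1a, 2 were called higher, Cdkn1a and the antiproliferative gene Btg2 (1.82 ± 0.37, SE, adjusted p = 0.00673), and the median was 0.634. DESeq2 and limma-voom each called 5 p53 targets, beside 1548 and 1244 of all 14212 genes. In edgeR 6 had an unadjusted p below 0.05, a threshold at which the share of all genes was not counted.

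Immediate early genes gave 5 calls of 17, all higher, where 6.18% of all genes were called, and their median was 0.791. DESeq2 and limma-voom each called 5 as well, beside 1548 and 1244 of all 14212 genes. The edgeR calls included Fosl1 (3.83 ± 0.78), Arc (1.99 ± 0.55), Btg2 and the phosphatase Dusp1 (1.28 ± 0.32, SE). Of 7 nuclear receptors listed as binding partners of Gadd45gip1, 0 were called by edgeR, DESeq2 or limma-voom, 1 had an unadjusted p below 0.05, and the median was -0.281. Among 48 genes of the mitochondrial large ribosomal subunit, the particle that holds the Gadd45gip1 product, 43 had a log2 change below 0 and 4 were called, all lower: Mrpl52 (-0.83 ± 0.19), Mrpl54 (-0.80 ± 0.17), Mrpl21 (-0.63 ± 0.18) and Mrpl34 (-0.63 ± 0.17, SE). Their median was -0.36, and 52.7% of all genes were above 0. Of all genes, edgeR called 6.18% in either direction. DESeq2 called 8 and limma-voom 6 of this list, beside 1548 and 1244 of all 14212 genes. In edgeR 14 of the list had an unadjusted p below 0.05, and the share of all genes at that threshold was not counted.

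The genes most like each family member were ranked by Pearson's r of log2 CPM over the 18 libraries, as a description, since libraries share depth, condition and the share of CT010467.1. Gadd45a was closest to Fgl2 (r = 0.936), Rhoq (0.934), Slc6a4 (0.922), AC158982.1 and AC165164.2 (0.914 each), with Atf3 in place 103 of 14211 (0.836). Without the second intact 12-month library Atf3 moved up to place 19 (r = 0.905). Gadd45g was closest to Tspan18 (0.924), Mia3 (0.92), Ano6 (0.912), Akr1b8 (0.91) and Maged1 (0.907), and Gadd45b to Hdac3 (0.919), Gm43672 (0.915), Cdc42ep2 (0.906), Itpa (0.883) and Txndc17 (0.881). The order for Gadd45b depended on the second intact 12-month library: without it these 5 genes had r of 0.811 to 0.877 and stood in places 10 to 65. For Gadd45gip1 the closest were Zfp771 (0.979), Ccl27a and Pelp1 (0.974 each), 1110065P20Rik (0.973) and Stx18 (0.972). These last values also depended on that library, where Gadd45gip1 is at 0 CPM: without it they were 0.766 to 0.829, in places 30 to 92. The genes named for Gadd45a and Gadd45g stayed within places 1 to 11 without it. The family did not rank near itself, the closest pair being Gadd45a and Gadd45g at r = 0.634. Without that library Gadd45gip1 ran against Gadd45a (r = -0.826, against -0.171 with it) and against Atf3 (-0.853, against 0.219).

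Within the injured libraries, Gadd45a and Atf3 went up and down together. Atf3 forms separate clusters in the 2 conditions, so each condition was tested alone. Over the 9 injured libraries Gadd45a had r = 0.888 with Atf3 (two-sided exact permutation p = 0.00109, adjusted p = 0.00871 over 8 relations) and rho = 0.917 (exact permutation p = 0.00131, adjusted p = 0.0105). Without the 2 libraries farthest from the median of Atf3, r was 0.783. Within ages, after the age means were removed, r was 0.899 (exact permutation over 216 arrangements, p = 0.00926, adjusted p = 0.0741). By r, Gadd45a stood in place 158 of 14211 genes there. The CT010467.1 share of these libraries had r = -0.65 with Gadd45a and -0.622 with Atf3, and its part in the relation was not tested.

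The other 3 genes did not pass by Pearson's r in injured libraries. Gadd45g had r = 0.654 (exact permutation p = 0.0564, adjusted p = 0.15), rho = 0.833 (exact permutation p = 0.00827, adjusted p = 0.0331), r = 0.786 without the 2 farthest libraries and r = 0.426 within ages (exact permutation p = 0.574, adjusted p = 0.656). Gadd45b had r = 0.722 (exact permutation p = 0.0307, adjusted p = 0.123) and rho = 0.5 (p = 0.178, adjusted p = 0.474), and r fell to 0.369 without the 2 farthest libraries, so this relation rested on them. Within ages it was 0.717 (exact permutation p = 0.13, adjusted p = 0.42). Gadd45gip1 had r = -0.433 (exact permutation p = 0.249, adjusted p = 0.399) and rho = -0.433 (p = 0.25, adjusted p = 0.5), with -0.607 without the 2 farthest and 0.646 within ages (p = 0.375, adjusted p = 0.6).

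In the 9 intact libraries no relation with Atf3 passed. Gadd45a had r = -0.0269 and rho = 0.0667 (exact permutation p = 0.947 and 0.88), Gadd45g r = -0.0127 and rho = -0.25 (p = 0.975 and 0.521), and Gadd45b r = 0.347 and rho = 0.283 (p = 0.362 and 0.463). Adjusted p was 0.975, 0.975 and 0.483 for the 3 Pearson values and 0.88, 0.694 and 0.694 for the rank values. Gadd45gip1 had r = 0.791 with rho = -0.167 (exact permutation p = 0.11 and 0.678, adjusted p = 0.219 and 0.775), and r became -0.523 without the 2 farthest libraries. Without those 2, r was -0.0418, -0.289 and 0.703 for Gadd45a, Gadd45g and Gadd45b. Within ages the 4 values ran from -0.492 to 0.731, with exact permutation p from 0.157 to 0.792 and adjusted p from 0.42 to 0.792.

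**Figure D3:**
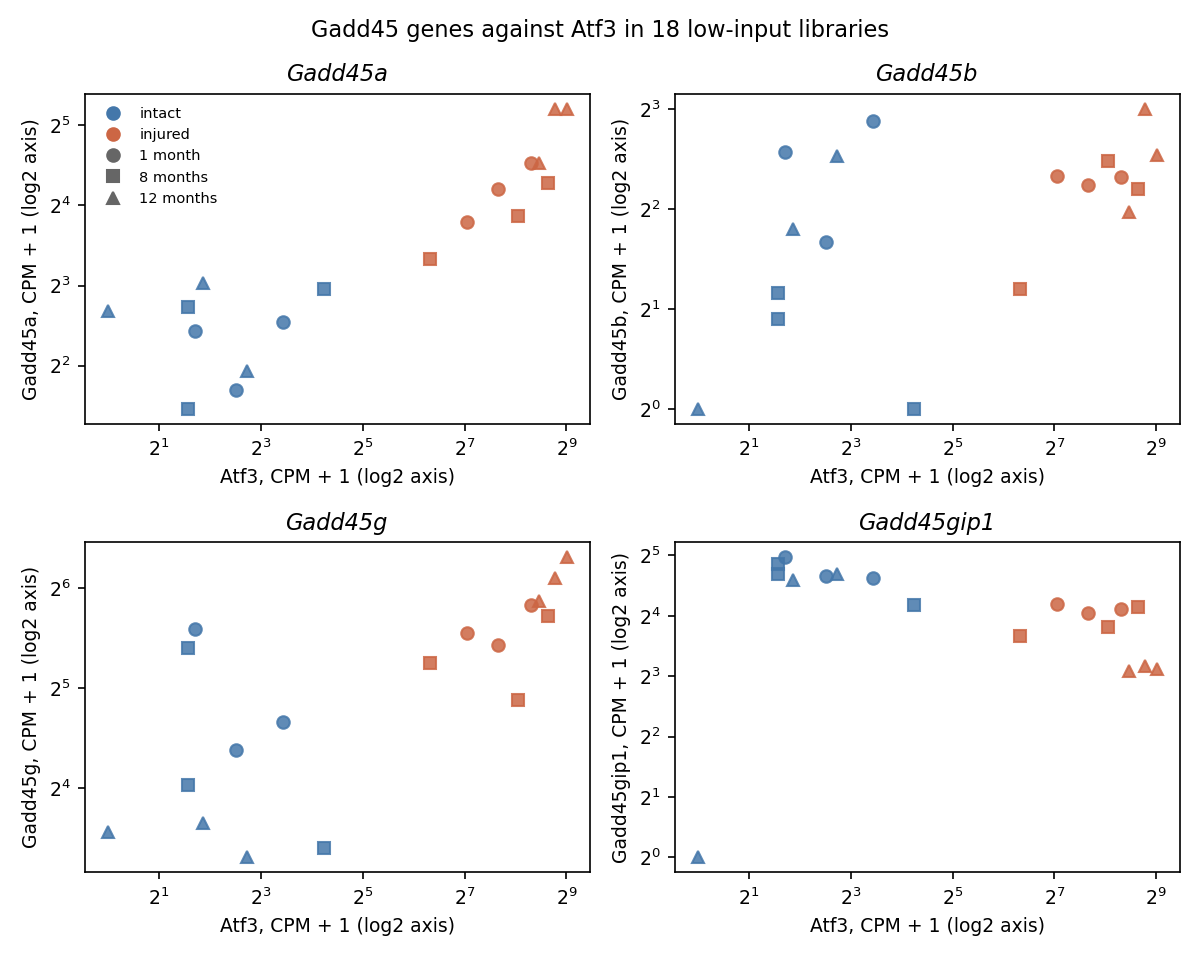
Each gene (CPM + 1, vertical log2 axis) against Atf3 (CPM + 1, horizontal log2 axis) in the 18 low-input libraries, coloured by condition and shaped by age. In the injured libraries Gadd45a climbs with Atf3 (r = 0.888), and the library at 0 for both Atf3 and Gadd45gip1 lies alone at the lower left.

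Single neurons gave levels without a test, because no animal is named and each group counts as 1 sample. Pooled levels are CPM outside CT010467.1, with exact 95% Poisson intervals, and shares carry exact binomial (Clopper-Pearson) 95% intervals, both for counting error only. The median cell held 291824 such counts in the intact and 1033580 in the injured group at 1 month, and 7145018 and 3571619 at 1 year, where 1 injured cell without counts was left out. The pooled level of Atf3 at 1 month was 805 CPM in injured (798 to 813) and 72.4 in intact cells (69.6 to 75.2). A single injured cell held 49.4% of the injured counts: without the top cell of each group the pools were 457 and 62.3 CPM, and the medians per cell were 87.3 and 35.6 CPM. The cells overlapped widely, as the highest intact cell was at 335 CPM and the injured upper quartile at 352 CPM. At least 1 CPM of Atf3 was found in 81% of injured and 72.2% of intact cells. At 1 year the Atf3 pool was 80.6 CPM in injured and 62.5 in intact cells, with medians of 29.6 and 51.6 CPM per cell. Leaving out the top cell of each group gave 42.5 against 51.5. At 1 year Atf3 was thus not higher in injured cells by the median or without the top cells. Directions given for the 1-year cells are those of the labels.

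Gadd45a was higher in the injured pool at both ages. It was 59.9 CPM (57.8 to 62.1) in injured and 14.6 CPM (13.4 to 15.9) in intact cells at 1 month, and 17.8 (16.9 to 18.6) against 9.11 (8.34 to 9.94) at 1 year. The medians per cell were close, 14.7 and 15.5 CPM at 1 month and 8.63 and 7.96 at 1 year, while the highest cells reached 176 CPM against 47.5 at 1 month and 443 against 24.4 at 1 year. Pools weight cells by their depth. The deepest injured 1-year cell, with 22890735 counts, was at 33.4 CPM and held 46.8% of that group's Gadd45a counts, and without it the pool was 12.6 CPM. The cell at 443 CPM was a shallow one, with 187292 counts. Cells with at least 1 CPM made up 81% (58.1% to 94.6%) of injured and 66.7% (41% to 86.7%) of intact cells at 1 month, and 71.4% (47.8% to 88.7%) and 87.5% (47.3% to 99.7%) at 1 year. After thinning every cell to 100000 counts the 1-month shares with a count were 64.7% of 17 injured and 66.7% of 12 intact cells.

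Gadd45g was at 233 CPM (229 to 237) in injured and 188 (183 to 192) in intact cells at 1 month, and at 90.6 (88.7 to 92.6) and 73.3 (71.1 to 75.6) at 1 year. The medians, 88.4 and 83.3 at 1 month and 82 and 77.9 at 1 year, were close, and without the top cell of each group the 1-month pools were 168 and 126 CPM. Gadd45b went the other way in the pools, 9.98 CPM (9.14 to 10.9) in injured against 15.2 (14 to 16.6) in intact cells at 1 month, and 7.81 (7.25 to 8.4) against 20.7 (19.5 to 21.9) at 1 year. Its medians were 0 against 8.35 CPM and 0.729 against 13.7 CPM. Single cells held 44.4% of the intact counts at 1 month and 40.4% at 1 year, and without the top cell of each group the pools were 7.74 against 9.94 CPM at 1 month and 6.74 against 13.7 at 1 year. Gadd45gip1 was lower in injured pools as in the low-input libraries, 21.8 (20.5 to 23.1) against 37.2 CPM (35.2 to 39.2) at 1 month and 27.7 (26.7 to 28.8) against 36.3 (34.7 to 37.9) at 1 year. In all, injured pools were above intact pools in 4 of 8 comparisons of gene and age, those of Gadd45a and Gadd45g.

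**Figure D4:**
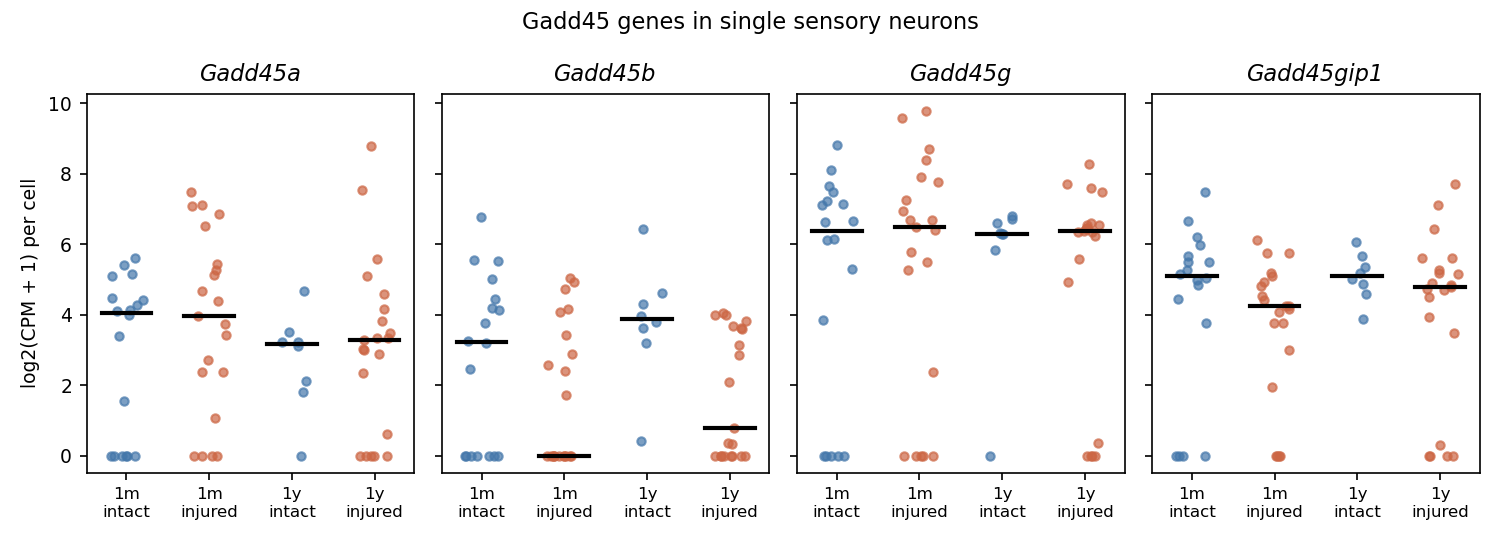
Level of each gene per cell (log2 of CPM + 1, vertical axis) in the 4 single-cell groups; dots are cells and black lines are medians. Medians of Gadd45a and Gadd45g lie close in injured and intact cells while some injured cells reach higher, and the Gadd45b medians of injured cells lie near 0.

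Most cells held several paralogs. At 1 CPM, Gadd45a, Gadd45b and Gadd45g were all present in 10 of 21 injured and 8 of 18 intact cells at 1 month and in 9 of 21 and 7 of 8 at 1 year, and none of the 3 in 4, 3, 4 and 1 cells of the same groups. Every injured 1-month cell with Gadd45b (10 of 10) also had Gadd45a and Gadd45g. Counts per cell differ widely, and the rank correlation of depth with Gadd45a was 0.587 in injured and 0.358 in intact 1-month cells, so cells with low depth can lack any gene.

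In the same cells, Gadd45a was mostly found with Atf3 at a threshold of 1 CPM. At 1 CPM, 16 injured 1-month cells held both, 1 held Atf3 alone, 1 Gadd45a alone and 3 neither, and in intact 1-month cells the counts were 12, 1, 0 and 5. At 1 year 15 injured cells held both, 2 Atf3 alone, 0 Gadd45a alone and 4 neither, and 7 of 8 intact cells held both. Spearman's rho of Gadd45a with Atf3 over cells was 0.733 and 0.512 in injured cells at 1 month and 1 year and 0.295 and 0.405 in intact cells, as a description of cells that share depth. The 5 injured 1-month cells with the most Atf3, 1131 to 3634 CPM, held 91.5 to 176.5 CPM of Gadd45a. The next cell by Atf3 was at 351.9 CPM, with 4.2 CPM of Gadd45a. Those 5 cells held 84.2 to 759.9 CPM of Gadd45g, 12.6 to 21.9 CPM of Gadd45gip1 and 0 to 9.7 CPM of Gadd45b, and they were singled out after their values were seen.

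For the other genes, rho with Atf3 in injured cells was 0.538 and 0.516 for Gadd45g at 1 month and 1 year, 0.0969 and 0.433 for Gadd45b, and -0.00913 and 0.739 for Gadd45gip1. In intact cells the values were 0.781 and 0.619 for Gadd45g, 0.207 and 0.333 for Gadd45b, and 0.445 and 0.595 for Gadd45gip1. Of injured 1-month cells with Atf3, 94.1% held Gadd45a, 88.2% Gadd45g and 52.9% Gadd45b at 1 CPM, of 17 cells. Gadd45gip1 was present in 94.1% of them as well, so presence at this threshold does not set Gadd45a apart.

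**Figure D5:**
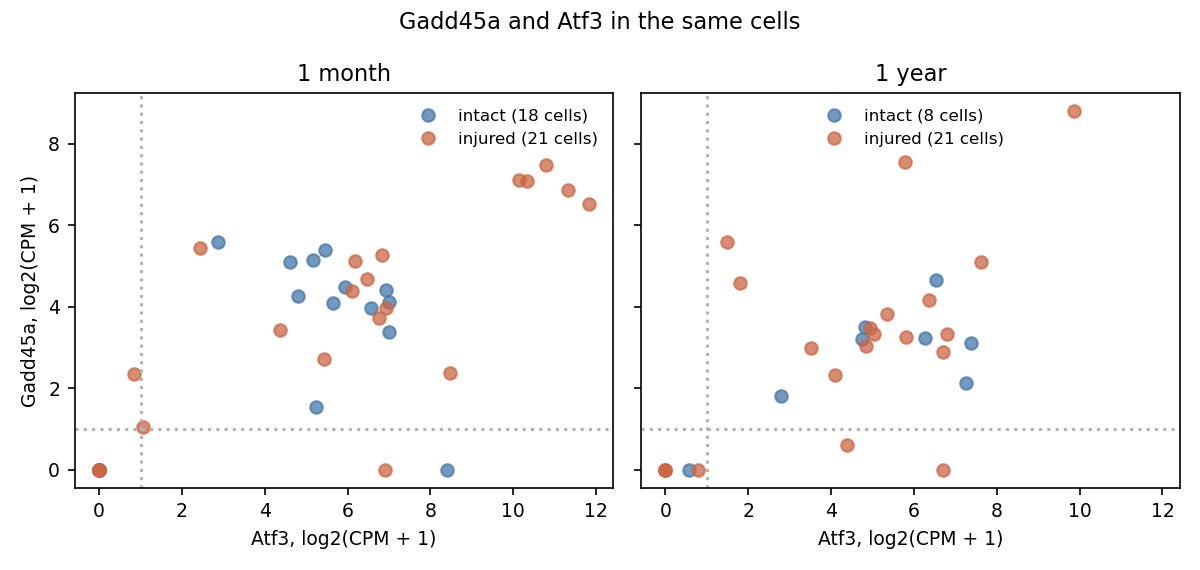
Gadd45a against Atf3 per cell (log2 of CPM + 1 on both axes) at 1 month and 1 year, with dotted lines at 1 CPM. At 1 month 5 injured cells lie at the upper right with 1131 to 3634 CPM of Atf3. At 1 year a single injured cell lies there, a shallow one (187292 counts) at 929 CPM of Atf3.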

How the data were processed

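RNA was read from 18 low-input libraries and from 69 neurons singly. The authors deposited 1 table of raw counts per gene, produced by featureCounts 1.5.2 (paired-end) over GENCODE vM16 exons summed by gene name, unstranded, per the file headers. Trim Galore, STAR and mm10 are named in the submitters' processing notes, without versions. Exon lengths, a further deposited column (unit other, in bp), were used for levels per kb. Methylation samples are not analysed here. The family, the gene lists and the tests were chosen with earlier results of these data known; the list of mitochondrial ribosomal genes was added after the files were seen.

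Low-input counts without ERCC rows were filtered (filterByExpr), scaled (TMM) and fitted in edgeR 4.0.16 with 6 group means over 18 libraries, tested on simulated data first. The call threshold was an adjusted p of 0.05 (Benjamini-Hochberg over 14212 genes), and SE was taken from the quasi-likelihood F. Alternatives used RLE, ERCC scaling, other filters, DESeq2 1.42.0, limma 3.58.1, a covariate, a block and each library left out. Named genes were the family, Atf3, up to 4 called genes of each list, and the 5 most alike by r at a prior count of 2. Totals were 7531967 to 19443627 counts per low-input library, so genes near 1 CPM rest on few counts.

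Whether same-numbered libraries deviate together from their group means was checked by correlation. Over 6253 genes with a mean of at least 10 CPM it was 0.151, 0.208 and 0.387 at 1 month, each over 0.1, the limit for reading numbers as pairs. Libraries of different numbers gave -0.384 to 0.17 at that age and up to 0.452 at 8 months, so this check cannot identify pairs. The reading at 1 month also depends on the gene set. Over 1948 genes with at least 20 counts in every library, the set tried first, same-numbered libraries gave 0.0898, 0.343 and 0.202, which would not pair them. At 8 and 12 months same-numbered libraries gave -0.295 to 0.188, and -0.494 to 0.101 in the set tried first, and were not read as pairs. The main fit used no pairs, and the block among the alternatives used replicate numbers at every age, including 8 and 12 months.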

Additional observations from a re-analysis of the deposited data

Results flagged for a closer look

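Among the 8 intact 1-year cells, the highest cell lay far from the others for 2 genes. The highest Gadd45a cell was at 24.4 CPM with the next at 10.3 CPM, a gap of 0.576 of the group's range, above the 95% limit of 0.526 for 8 values. For Gadd45b the highest cell was at 85.4 CPM and the next at 23.4 CPM, a gap of 0.728 of the range. Chance alone passes this limit in about 1 in 20 groups, and cells are not independent samples. No injury effect of the 4 genes differed between ages by the interaction test at an adjusted p below 0.05.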

How the results depend on the processing

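The direction of Gadd45a and Gadd45g averaged over ages held under all 27 alternatives each, and the call under 26 each, the covariate for the CT010467.1 share being the exception (1.54 and 1.34). That covariate also turned Gadd45b (-0.27 averaged, -1.44 at 12 months). It left 0 of the 4 genes called at 12 months, where 0 of all 14212 genes were called. ERCC scaling called Gadd45b (3.79), turned Gadd45gip1 averaged (1.86) and at 1, 8 and 12 months (0.73, 1.10 and 3.74) and Gadd45b at 1 month (1.00), gave 4 calls at 12 months and 4 between ages of intact neurons, and moved the median of all genes to 2.90. With that scaling 13493 of all 14212 genes were called averaged over ages and 13675 at 12 months, so these injury calls do not set the family apart. The share of all genes called between ages of intact neurons with that scaling was not counted. Gadd45gip1 averaged was called with no filter (-0.86), by DESeq2 (-0.92) and by limma-voom (-0.90). The replicate block gave 2.18 and 1.497 for Gadd45a and Gadd45g, 1.10 for Gadd45b and -0.76 for Gadd45gip1 averaged over ages. It changed no call of the 4 genes, while calls over all genes went from 878 to 329.

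With 1 library left out, the averaged log2 changes ran from 1.98 to 2.30 (Gadd45a), 0.71 to 1.16 (Gadd45b), 1.28 to 1.67 (Gadd45g) and -1.02 to -0.78 (Gadd45gip1). Calls ran from 0 to 1 at 1 month, 0 to 0 at 8 months, 1 to 3 at 12 months, 0 to 1 between ages of intact and 0 to 0 of injured neurons. Gadd45b at 1 month ran from -0.53 to 0.14, turning without the second intact library of that age. At 1 month 1 gene, Gadd45a, was called with no filter, by DESeq2, by limma-voom and in the 6-library fit. At 12 months limma-voom and the 6-library fit called 1 each, and DESeq2 called 3. Between ages of intact neurons 2 were called with no filter and 1 by DESeq2, and of injured neurons 3 by limma-voom. The shares of all genes called between ages in these settings were not counted. A prior count of 0.5 turned r of Gadd45g with Atf3 in intact libraries to 0.0598 and left 1 of 8 relations passing. In cells, injured exceeded intact in 2 of 8 comparisons by the share at 10 CPM or after thinning, and cells with both Gadd45a and Atf3 numbered 50 at 1 CPM, 28 at 10 CPM and 27 after thinning. Pools without the top cell, medians and shares at 1 CPM were chosen after seeing the data and gave 4, 3 and 3 of 8. The cause of these changes was not tested. Depth limits Gadd45b most, at 0 to 186 counts per library.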
